A study of Mus musculus with 6 samples.

Results

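The naive and core pluripotency transcription factors are 10 genes here, namely Pou5f1, Sox2, Nanog, Klf2, Klf4, Klf5, Esrrb, Zfp42, Tfcp2l1 and Tbx3. They were taken by name from the 50686 genes counted, with earlier results of these data known, and all 10 passed the filter on low counts. Gingival fibroblasts of the mouse were the source of the iPSCs used. All samples were grown as embryoid bodies, received retinoic acid, were attached to gelatin-coated dishes and were kept in serum-free medium for the 24 h of the experiment. Intermittent compressive force (ICF) of 1.5 g per square centimetre at 0.23 Hz was applied to 3 samples, and 3 unloaded samples were the control. The labels number the samples as donors 1 to 3 in each group, and this number is called the replicate. The iPSCs had been kept on SNL feeder cells, which were removed by selective trypsinization before the embryoid bodies were formed. Strain, sex and age of the source animals are not given in the sources used here, and neither are the factors used for reprogramming. A count per gene does not separate an endogenous transcript from a reprogramming transgene with the same coding sequence, and this was not tested.

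Pluripotency in mouse cells rests on a network of transcription factors that activate each other. Pou5f1 (Oct4), Sox2 and Nanog form its core, and Pou5f1 and Sox2 bind side by side on composite DNA sites in many genes of the network, their own included. Klf2, Klf4, Klf5, Esrrb, Tfcp2l1 and Tbx3 hold cells in the naive state of the early embryo, downstream of leukemia inhibitory factor (LIF), STAT3 and Wnt signaling, and Zfp42 (Rex1) is a zinc finger gene widely used as a marker of that state. Retinoic acid drives such cells to differentiate, and most of these factors are switched off as they do.

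Reads counted on genes numbered from 28711166 to 34194413 per sample. Counts above 0 were divisible by 4 for 89.0% of genes in ICF replicate 3 and for 20.3% to 21.5% elsewhere, so its counting error is larger than its total implies. Of 16729 genes tested, 3.47% were higher and 4.38% were lower with ICF (7.85% in either direction) in edgeR's quasi-likelihood test at an adjusted p under 0.05. With the replicate number as a block these shares were 14.6% and 15.3% (29.9% in all). The 10 genes together took 0.253% to 0.293% of the counts in the control and 0.254% to 0.288% with ICF. In RNA from whole embryoid bodies, fewer cells that express a gene and less RNA per cell cannot be told apart.

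Promoters from RefSeq (build GRCm38.p6) were searched on both strands for sites of POU, SOX and KLF factors. These were a POU-SOX composite site (TTTGCAT, any base, then ACAATG), the octamer of POU factors (ATTTGCAT) and a KLF site (GGGNGTGG). No mismatch was allowed, so the shares of windows with a match cover these exact letters only, and variants of the sites were not counted. The composite site and the octamer can share their letters TTTGCAT. Each window ran from 250 bases before to 50 bases after a start site, and windows were at hand for 8 of the 10 genes. The composite site was found in 2 of 32851 windows (0.00609%), and both belong to Nanog, where they cover the same site from different start sites. The octamer was found in 1.74% of windows, with Zfp42 the only member to hold it. The KLF site was found in 17.6% of windows and in those of 4 members, Pou5f1, Nanog, Zfp42 and Tfcp2l1. The 250 bases before the start site are printed for Nanog and Zfp42, which hold a POU site, and for Tfcp2l1, which holds a pair of KLF sites in that stretch, with the matches in capitals. Another KLF match of Nanog, GGGGGTGG, begins 24 bases after the start site, outside the stretch printed. A match is a description of the letters and not evidence of binding.
Nanog, chr6:122707239-122707488, forward strand: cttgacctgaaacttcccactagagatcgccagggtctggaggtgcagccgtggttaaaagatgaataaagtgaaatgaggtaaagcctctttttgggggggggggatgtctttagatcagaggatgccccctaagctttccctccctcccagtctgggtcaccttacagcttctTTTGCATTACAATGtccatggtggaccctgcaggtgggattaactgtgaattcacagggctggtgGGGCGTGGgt
Zfp42, chr8:43307010-43307259, reverse strand: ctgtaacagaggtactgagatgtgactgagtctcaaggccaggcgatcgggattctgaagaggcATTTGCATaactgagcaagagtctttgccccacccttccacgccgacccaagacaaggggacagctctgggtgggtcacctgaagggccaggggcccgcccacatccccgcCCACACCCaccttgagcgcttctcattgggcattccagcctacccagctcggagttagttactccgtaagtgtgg
Tfcp2l1, chr1:118627695-118627944, forward strand: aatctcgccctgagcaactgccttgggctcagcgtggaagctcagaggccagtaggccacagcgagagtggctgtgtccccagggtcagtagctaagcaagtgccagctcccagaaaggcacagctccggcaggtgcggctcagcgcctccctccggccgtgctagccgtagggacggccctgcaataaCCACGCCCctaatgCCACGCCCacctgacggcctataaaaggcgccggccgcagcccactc

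Levels were compared between genes as CPM per kb of exon, meaning TMM-normalized CPM (counts scaled to library size) divided by the length of all annotated exons. The order of genes at similar levels can depend on the length used. All exons of Esrrb cover 6047 bases and its longest transcript 4300, while for Klf4 these lengths are 3049 and 3029 bases. The order by transcript length was not tested. Pou5f1, on chromosome 17 from 35506018 to 35510772, was the highest of the 10 at 374 ± 25.4 CPM per kb (SD, n = 3) in the control. Over all samples it was above 99.6% of the genes tested. Sox2 followed with 222 ± 24.3 and Nanog with 157 ± 17.5 CPM per kb (SD, n = 3). These 3 genes of the core stood in the same order in every sample, without overlap of their values. Klf2 (88.3 ± 18.0), Klf4 (74.7 ± 15.3) and Esrrb (59.3 ± 5.84 CPM per kb, SD, n = 3) came next, and the control values of Klf2 and Klf4 overlapped, as did those of Klf4 and Esrrb. Zfp42 had 41.0 ± 2.28 and Klf5 had 22.1 ± 1.31 CPM per kb (SD, n = 3). The lowest levels in the control were those of Tbx3 (15.7 ± 1.06) and Tfcp2l1 (13.6 ± 0.27 CPM per kb, SD, n = 3), which still exceeded 79.8% and 74.2% of the genes tested over all samples. With ICF, Tbx3 (20.6 ± 1.47) overlapped with Klf5 (19.9 ± 1.17 CPM per kb, SD, n = 3), whereas in the control every Klf5 value was above every Tbx3 value.

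**Figure D1:**
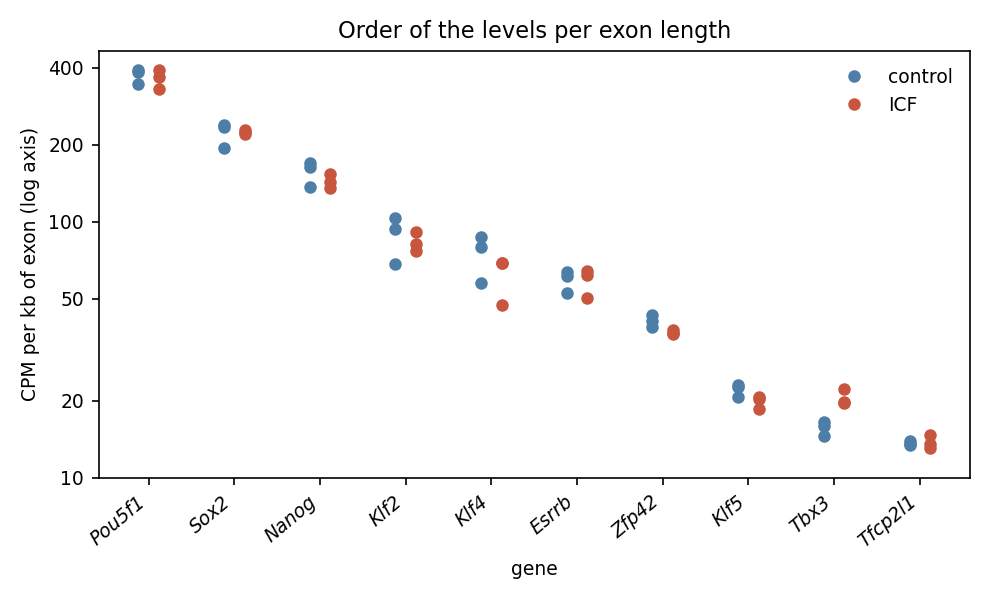
CPM per kb of exon on a log axis for each gene, ordered by the control mean, with a point for each of 3 control (blue) and 3 ICF (red) samples. The levels span from 374 for Pou5f1 to 13.6 for Tfcp2l1 in the control, and the ICF points lie apart from the control points for Tbx3 and Zfp42 only.

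The comparison of ICF with control asked whether a day of force altered these factors. Tbx3 was the exception among the 10, with a 1.31-fold higher mRNA level under ICF. The other 9 genes did not pass the threshold in either direction, and their log2 fold changes lay between -0.28 and 0.016, with a median over all 10 of -0.063 against 0.0026 over all genes tested. The count of 1 of 10 higher stands beside a background of 3.47%, and the count of 0 of 10 lower beside 4.38%. At an unadjusted p under 0.05 in edgeR there was also 1 of the 10 genes, against 25.6% of all genes, and DESeq2 gave 1 higher and 0 lower (backgrounds of 6.38% and 7.50%). The groups did not overlap for 2 of the 10, Tbx3 and Zfp42, against 31.4% of all genes. With the replicate block, Tbx3 was higher and Klf4 and Klf5 were lower, 2 of 10 against a background of 15.3% lower. DESeq2 with the block called the same 3 genes, with backgrounds of 9.64% higher and 11.0% lower. With the block on counts of ICF replicate 3 divided by 4, Nanog, Klf4, Klf5 and Zfp42 were lower (background of 16.6%). With both samples numbered 3 left out, Tbx3 was higher and Nanog, Klf2, Klf4 and Klf5 were lower (backgrounds of 14.6% and 15.6%).

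**Figure D2:**
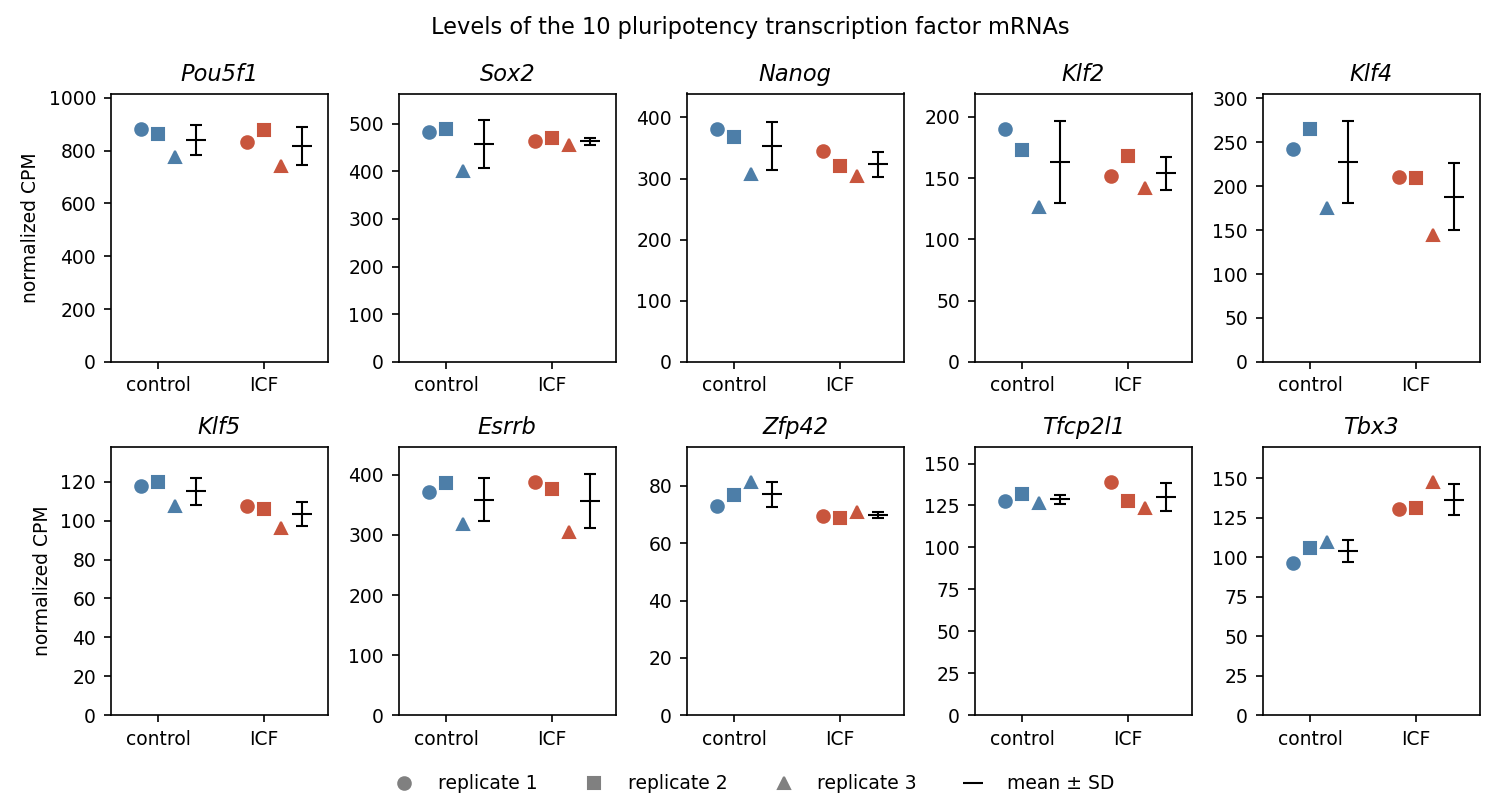
Normalized CPM of each gene in 3 control (blue) and 3 ICF (red) samples, with the symbol giving the replicate and the black bar the mean ± SD, and every axis starting at 0. Tbx3 is at 96.0 to 110 in the control and 130 to 148 with ICF, while Sox2, Esrrb and Tfcp2l1 overlap between the groups.

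Tbx3 encodes a T-box factor that supports self-renewal of mouse pluripotent cells and also acts in early endoderm and mesoderm, and it lies on chromosome 5 from 119670669 to 119684724. Its level was 96.0, 106 and 110 CPM in control replicates 1 to 3 and 130, 131 and 148 CPM in ICF replicates 1 to 3. Every ICF sample was higher than every control sample, as in 15.6% of all genes tested. In edgeR this was a log2 difference of 0.39 with a standard error of 0.076, a 95% interval from 0.22 to 0.57 and an adjusted p of 0.018 (n = 3 in each group). Within the same-numbered pairs the log2 differences were 0.44, 0.31 and 0.43. The exact two-sided permutation test over samples gave p = 0.1, the lowest value possible with 3 and 3 samples. Removing any of the 6 samples kept the difference within 0.34 to 0.43, but the adjusted p rose to 0.085 without control replicate 1 and to 0.084 without control replicate 2 in the edgeR test. Without ICF replicate 3 it was 0.021 in that edgeR test. Antisense transcript Tbx3os1 overlaps 1.7% of the exon bases of Tbx3.

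Pou5f1, which encodes the POU factor at the centre of the network, had 883, 863 and 776 CPM in the control and 830, 879 and 741 CPM with ICF. The ranges overlapped, and in both groups the lowest value was that of replicate 3. Its log2 fold change was -0.041, with a 95% interval from -0.22 to 0.14 (edgeR). For Sox2, its partner of the HMG box family, on chromosome 3 from 34650405 to 34652461, the control had 483, 490 and 400 CPM and the ICF samples 463, 470 and 455 CPM. All ICF values fell inside the control range. The log2 fold change of Sox2 was 0.016, with a 95% interval from -0.17 to 0.20 (edgeR). Pou5f1 and Sox2 were called in 0 of the 15 alternative fits. In Pou5f1, 14.1% of the exon bases are also covered by the antisense gene Gm19553, and whether the counting used the strand is not given in the sources used here.

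Nanog encodes the homeobox factor that stabilizes the undifferentiated state, and it lies on chromosome 6 from 122707489 to 122714633, downstream of the promoter with the composite site printed above. Its level was 382, 368 and 308 CPM in the control and 345, 321 and 305 CPM with ICF. ICF replicates 1 and 2 were below control replicates 1 and 2, and the samples numbered 3 were nearly level, so that the groups overlapped. ICF changed it by -0.12 on the log2 scale, with a 95% interval from -0.33 to 0.078 and an adjusted p of 0.42 (edgeR). It was called lower in 2 of 15 alternative fits, with both samples numbered 3 left out (adjusted p = 0.014) and with the replicate block on counts of ICF replicate 3 divided by 4 (adjusted p = 0.047, edgeR). The pseudogene Nanog-ps1 shares 1.6% of the 75-base stretches of the longest Nanog transcript.

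**Figure D3:**
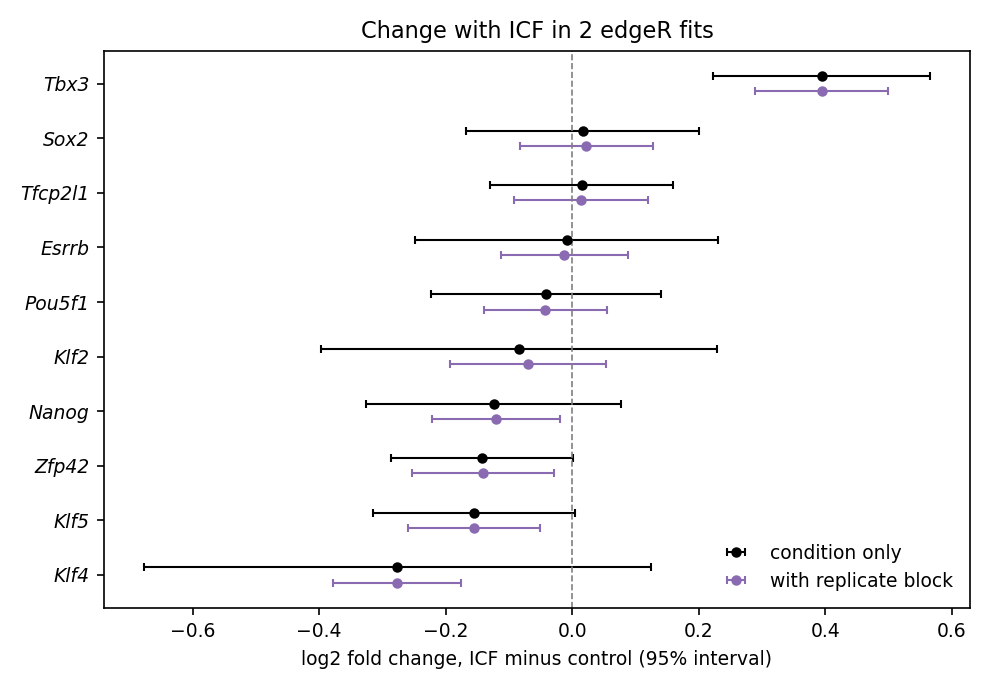
Log2 fold change of ICF minus control with its 95% interval for each gene, from the edgeR fit with condition only (black) and with the replicate block (violet). The interval of Tbx3, from 0.22 to 0.57, lies wholly above 0 in the fit with condition only, while in the blocked fit the intervals of Klf4 (-0.38 to -0.18), Klf5 (-0.26 to -0.051), Nanog (-0.22 to -0.019) and Zfp42 (-0.25 to -0.029) also leave 0 out, of which Klf4 and Klf5 passed the adjusted threshold.

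The Krüppel-like factors Klf2, Klf4 and Klf5 are zinc finger activators that bind GC-rich sites of the kind marked in the promoters, and they can partly stand in for each other in the naive state. Klf4, on chromosome 4 from 55527143 to 55532466, had 242, 266 and 175 CPM in the control and 210.3, 209.8 and 144 CPM with ICF. It was lower with ICF in each same-numbered pair, by log2 differences of -0.20, -0.34 and -0.29, but the groups overlapped because replicate 3 was far below replicates 1 and 2 in both. The estimate of -0.28 on the log2 scale had a standard error of 0.18 and an adjusted p of 0.37 (edgeR), and with the replicate block it kept this size with a standard error of 0.050 and an adjusted p of 5.3e-05 (edgeR).

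Klf5 had 118, 120 and 107 CPM in the control and 108, 106 and 96.4 CPM with ICF. It too was lower in each pair, by -0.13, -0.18 and -0.16 on the log2 scale. In edgeR the change of -0.16 had an adjusted p of 0.21, which became 0.020 once the replicate was a block. Klf2 ranged from 126 to 191 CPM in the control and from 142 to 168 CPM with ICF, and its pairs did not share a direction, with log2 differences of -0.33, -0.039 and 0.17. Its log2 fold change was -0.085, with a 95% interval from -0.40 to 0.23 (edgeR).

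Esrrb encodes an orphan nuclear receptor that can take the place of Nanog in sustaining self-renewal, and Tfcp2l1 a grainyhead-related factor downstream of STAT3. Esrrb ranged from 319 to 386 CPM in the control and from 304 to 389 CPM with ICF, with a log2 fold change of -0.0089 and a 95% interval from -0.25 to 0.23 (edgeR). Tfcp2l1 ranged from 127 to 132 CPM in the control and from 123 to 139 CPM with ICF, with a log2 fold change of 0.015 and an interval from -0.13 to 0.16 (edgeR). Both ICF ranges enclosed the control range. Zfp42 had 72.9, 76.8 and 81.5 CPM in the control and 69.5, 68.9 and 71.0 CPM with ICF. It was the gene whose ICF samples were all below all control samples, a pattern seen in 15.7% of the genes tested. Zfp42 changed by -0.14 on the log2 scale (adjusted p = 0.20, and 0.051 with the replicate block, edgeR). It was past the threshold in 1 of 15 alternative fits, and the pseudogene Zfp42-ps1 shares 4.8% of its 75-base stretches.

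Several of these genes differed between replicates within both groups. Replicate 3 was compared with the mean of replicates 1 and 2 in the blocked edgeR fit, a contrast chosen after the data were seen. In that contrast 7 of the 10 genes were lower and 1 was higher, against backgrounds of 13.4% and 13.4%. Klf4 was lowest, at -0.54 on the log2 scale (standard error 0.054, adjusted p = 4.2e-09), followed by Klf2 at -0.35 (standard error 0.065, adjusted p = 0.00015) and Esrrb at -0.29 (standard error 0.053, adjusted p = 0.00011). Nanog (-0.21), Pou5f1 (-0.19), Sox2 (-0.16) and Klf5 (-0.15) were lower as well, with adjusted p-values of 0.0041, 0.0055, 0.032 and 0.043 (edgeR). The contrast averages both groups, and for Sox2 the low value was mainly that of control replicate 3 (400 CPM, against 483 and 490 CPM). With ICF the Sox2 values of replicates 1 to 3 were 463, 470 and 455 CPM. Tbx3 was higher by 0.15 (adjusted p = 0.042, edgeR), the direction in which it also moved with ICF. Zfp42 (0.080) and Tfcp2l1 (-0.073) did not pass. With the counts of ICF replicate 3 divided by 4, the numbers called were again 7 lower and 1 higher. The labels do not say what sets the samples numbered 3 apart.

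**Figure D4:**
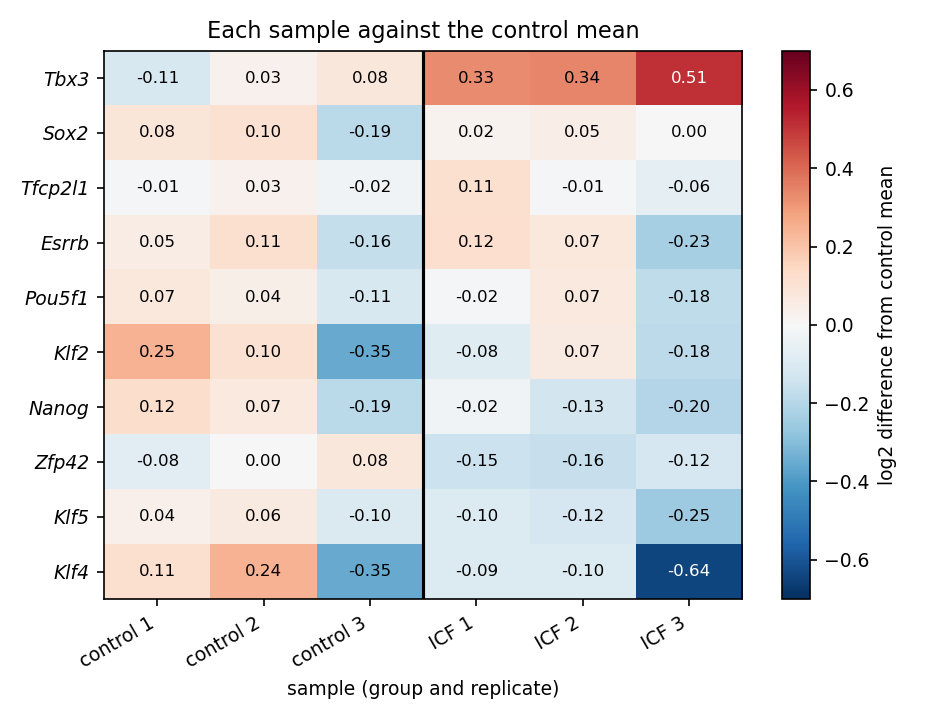
Log2 difference of each sample from the control mean of the gene, with genes ordered by their change with ICF and a line between the groups. Blue cells fill the columns of control 3 and ICF 3 for Klf4 (-0.35 and -0.64), Nanog, Pou5f1 and Esrrb, while Tbx3 is red in all ICF samples (0.33 to 0.51).

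Profiles over the 6 samples were also compared by the root mean square difference of log2 CPM after each gene was centred on its own mean, among 11915 genes whose mean count reached 100. Closest to Pou5f1 were Smpd1 (0.013), Snrpb (0.014) and Med9 (0.016). Closest to Sox2 were Bud13 (0.020), Myo10 (0.025) and Ift57 (0.026), and closest to Nanog were Katna1 (0.023), Herpud2 (0.025) and Ankrd46 (0.026). With 6 samples and this many genes, close profiles arise readily, and none of these 9 genes was called between ICF and control. Among the 10 factors themselves, Nanog and Klf5 (0.059) and Pou5f1 and Esrrb (0.068) had the most similar profiles, and Klf4 and Tbx3 (0.47) the least.

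Of 24 other genes of the pluripotency network, all tested, 2 were higher and 3 lower with ICF, with 19 not called, beside 3.47% higher and 4.38% lower over all genes. Their median log2 fold change was -0.036. DESeq2 gave 3 of the 24 higher and 4 lower, beside 6.38% and 7.50% over all genes. Tdgf1 (Cripto), which encodes a cell surface co-receptor for Nodal, had the largest fall, from 761, 785 and 620 CPM in the control to 393, 387 and 453 CPM with ICF. The groups were well apart, and the fall of 0.81 on the log2 scale had an adjusted p of 0.0028 (edgeR). Fbxo15, an F-box gene long used as a reporter of pluripotency, fell from 147 ± 8.82 to 100.4 ± 3.94 CPM (SD, n = 3), by 0.55 on the log2 scale with an adjusted p of 0.0024 in the edgeR test. Tcl1, a co-activator of the kinase Akt, fell from 27.5 ± 2.42 to 19.1 ± 3.05 CPM (SD, n = 3), by 0.52 on the log2 scale with an adjusted p of 0.041 in the edgeR test.

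In the opposite direction, Zscan10, a zinc finger factor of pluripotent cells, rose from 86.2, 87.9 and 96.6 CPM to 130, 143 and 140 CPM. On the log2 scale this rise was 0.61, with an adjusted p of 0.0018 (edgeR), the largest rise on this list. Tdh, the threonine dehydrogenase that feeds one-carbon metabolism in mouse pluripotent cells, rose from 259 ± 10.9 to 339 ± 27.4 CPM (SD, n = 3), with a log2 fold change of 0.39 and an adjusted p of 0.015 (edgeR). Tdgf1, Fbxo15 and Zscan10 passed the threshold in all 15 alternative fits, and Tdh and Tcl1 in 11 each. Of the highly expressed remainder, Dppa5a had 669 ± 58.0 CPM in the control and 546 ± 58.9 CPM with ICF (SD, n = 3, adjusted p = 0.092, and 1.2e-05 with the replicate block, edgeR). DESeq2 called Dppa5a lower (adjusted p = 0.036) and Zfp57, chosen after its values were seen, higher (adjusted p = 0.027). L1td1 had 665 ± 51.7 and 641 ± 67.9 CPM (SD, n = 3, adjusted p = 0.76, edgeR). With the replicate block 6 of the 24 genes were higher and 7 lower, beside 14.6% and 15.3% over all genes.

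**Figure D5:**
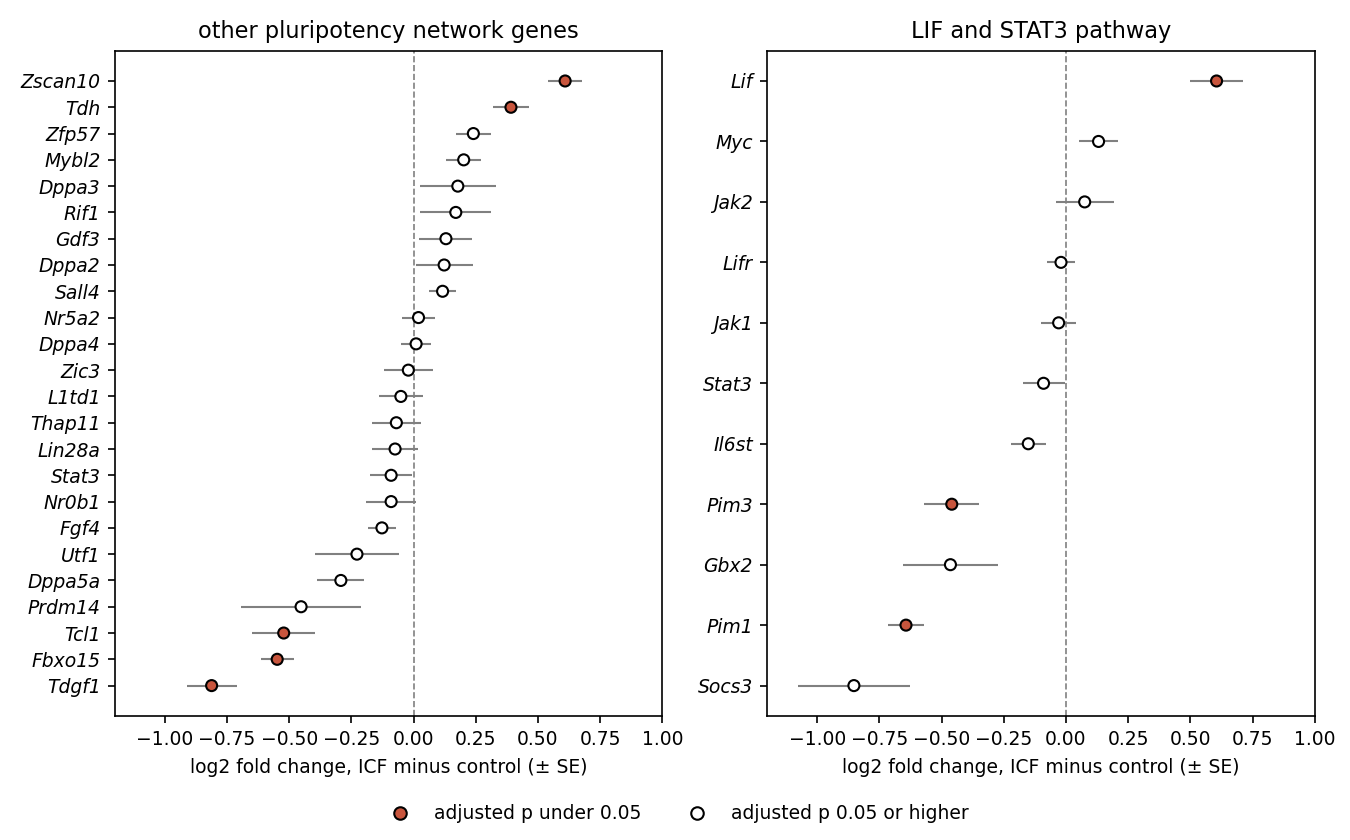
Log2 fold change of ICF minus control ± its standard error for 24 other pluripotency network genes (left) and 11 genes of the LIF and STAT3 pathway (right), with filled points at an adjusted p under 0.05. Tdgf1 at -0.81 and Zscan10 at 0.61 are the outermost points on the left, and Socs3 at -0.85, which is not filled, and Lif at 0.61 those on the right.

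LIF acts through its receptor Lifr and the shared subunit Il6st (gp130) on the kinases Jak1 and Jak2 and on STAT3, which induces Socs3, Pim1 and Pim3 as well as several of the naive factors. Of 11 genes of this pathway, 1 was higher and 2 lower in the edgeR test, beside 3.47% higher and 4.38% lower over all genes. With the replicate block 1 was higher and 5 lower, beside 14.6% and 15.3% over all genes. The ligand gene Lif rose from 8.76, 9.61 and 8.42 CPM to 14.7, 13.0 and 13.0 CPM (log2 fold change 0.61, standard error 0.11, adjusted p = 0.012, edgeR). The kinase gene Pim1 fell from 76.2 ± 4.56 to 48.8 ± 2.94 CPM (SD, n = 3), by 0.64 on the log2 scale with an adjusted p of 0.0019, and Pim3 fell from 98.1 ± 12.6 to 71.4 ± 7.87 CPM (SD, n = 3), by 0.46 with an adjusted p of 0.040, both in the edgeR test. With a sample left out, Pim1 kept the call in 6 of 6 fits, Lif in 3 and Pim3 in 2. Lifr had 182 ± 4.15 and 179.6 ± 5.80 CPM (SD, n = 3, adjusted p = 0.86, edgeR), and Il6st had 135 ± 6.63 and 122 ± 8.43 CPM (SD, n = 3, adjusted p = 0.22, and 0.024 with the replicate block, edgeR). Socs3, the feedback inhibitor, was chosen after its values were seen. It had 96.2, 99.8 and 59.2 CPM in the control and 54.8, 53.1 and 33.3 CPM with ICF, without overlap, and its adjusted p was 0.055 (0.054 with DESeq2, and 4.6e-14 with the replicate block in edgeR).

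Among 9 factors that promote exit from the naive state, 0 were higher and 1 lower in the edgeR test (3.47% and 4.38% over all genes). At an unadjusted p under 0.05 there were 2 of the 9 (25.6% over all genes). DESeq2 gave 1 higher and 1 lower, beside 6.38% and 7.50% over all genes. The gene called lower was Rbpj, the DNA-binding effector of Notch signaling. Its level fell from 232 ± 4.87 to 182 ± 18.3 CPM (SD, n = 3), by 0.35 on the log2 scale (adjusted p = 0.031, edgeR). This edgeR call was kept in 2 of the 6 fits that left out a sample. Etv5 had 267 ± 4.71 and 247 ± 0.33 CPM and Mbd3 193 ± 14.2 and 189 ± 22.7 CPM (SD, n = 3), neither past the threshold. With the replicate block 2 of the 9 were higher and 1 lower, beside 14.6% and 15.3% over all genes. Of 14 other genes of the KLF family, 13 were tested. In the edgeR test 0 were higher and 1 lower (3.47% and 4.38% over all genes). At an unadjusted p under 0.05 there were 3 of the 13 (25.6% over all genes). DESeq2 gave 0 higher and 2 lower, beside 6.38% and 7.50% over all genes. The gene called in edgeR was Klf11, at 31.3 ± 1.37 CPM in the control and 25.4 ± 1.38 CPM with ICF (SD, n = 3, log2 fold change -0.30, adjusted p = 0.048, edgeR). Klf11 lost this call in 5 of the 6 fits that left out a sample. Klf9 (186 ± 2.94 and 176.5 ± 13.2 CPM) and Klf6 (118 ± 9.50 and 109 ± 25.4 CPM, SD, n = 3) did not pass. With the replicate block 0 of the 13 were higher and 4 lower, beside 14.6% and 15.3% over all genes.

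Response genes of retinoic acid were measured because all samples had been exposed to it. Of 12 such genes, 11 were tested, of which 0 were higher and 3 lower in the edgeR test (3.47% and 4.38% over all genes). At an unadjusted p under 0.05 there were 4 of the 11 (25.6% over all genes). DESeq2 gave 0 higher and 4 lower, beside 6.38% and 7.50% over all genes. Cyp26a1, the enzyme that degrades retinoic acid, fell from 34.2 ± 1.28 to 21.1 ± 2.60 CPM (SD, n = 3), by 0.70 on the log2 scale (adjusted p = 0.0052, edgeR). Stra6, a retinol transporter, fell by 1.21 and Stra8, a meiosis gene induced by retinoic acid, by 0.98 on the log2 scale, from 8.62 ± 0.51 to 3.70 ± 0.93 CPM and from 4.43 ± 0.24 to 2.25 ± 0.12 CPM (SD, n = 3), with adjusted p-values of 0.0069 and 0.0062 (edgeR). Meis1, a homeobox gene, had 18.7 ± 0.44 and 17.0 ± 0.17 CPM (SD, n = 3) and did not pass. With the replicate block 1 of the 11 was higher and 4 lower, beside 14.6% and 15.3% over all genes. Crabp2 and Cdx1 were chosen after their values were seen. Crabp2 rose by 0.53 on the log2 scale (adjusted p = 0.37, and 0.025 with the replicate block, edgeR). Cdx1 had 1.29 ± 0.11 and 0.41 ± 0.31 CPM (SD, n = 3), without overlap (adjusted p = 0.063 in edgeR and 0.021 in DESeq2).

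Because Sox2 is also expressed in neural progenitors, and Tbx3, Klf4 and Klf5 in other lineages, marker lists of the cell types such embryoid bodies could hold were counted alongside. Of 9 primed epiblast genes, 7 tested neural genes and 8 trophectoderm genes, 0 were called in either direction by edgeR, beside 7.85% over all genes. At an unadjusted p under 0.05 there were 4, 2 and 1 of them, against 25.6% of all genes, and DESeq2 called 2, 1 and 0, with 6.38% of all genes higher and 7.50% lower. The summed level of the primed epiblast list was 826 to 972 CPM in the control and 870 to 1079 CPM with ICF, that of the neural list 159 to 180.4 and 151 to 175.5 CPM, and that of the trophectoderm list 334 to 435 and 330 to 482 CPM. The most abundant genes of these lists were Dnmt3b (404 ± 74.0 and 523 ± 74.8 CPM), Tubb3 (75.8 ± 4.28 and 64.8 ± 5.11 CPM) and Krt8 (129 ± 17.5 and 137.5 ± 34.5 CPM, SD, n = 3). With the replicate block, 14.6% of all genes were higher and 15.3% lower. In that fit the primed list had 2 genes higher (Dnmt3b and Fgf5) and 2 lower (Otx2 and Zic2). The neural list had 1 higher (Nes) and 1 lower (Tubb3), and the trophectoderm list 2 higher (Tfap2c and Tead4). Of the genes named for that fit, all but Dnmt3b and Tubb3 were chosen after their values were seen.

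Of 9 endoderm genes, 0 were higher and 1 lower in the edgeR test, beside 3.47% higher and 4.38% lower over all genes. Their summed level was 963 to 1186 CPM in the control and 1093 to 1291 CPM with ICF. With the replicate block 2 were higher and 1 lower, beside 14.6% and 15.3% over all genes. Sox17, an endoderm factor, fell from 68.8 ± 2.98 to 54.3 ± 5.78 CPM (SD, n = 3), by 0.34 on the log2 scale with an adjusted p of 0.044 (edgeR), and it kept the call in 1 of the 6 fits that left out a sample. Gata4 was at 173 ± 7.25 and 177 ± 10.2 CPM and Dab2 at 610 ± 133 and 725.5 ± 129 CPM (SD, n = 3), neither past the threshold, although Dab2 was called higher with the replicate block (adjusted p = 9.7e-05, edgeR). Of 10 tested genes of fibroblasts and mesenchyme, 2 were higher and 0 lower, beside 3.47% and 4.38% over all genes. With the replicate block 4 were higher and 0 lower, beside 14.6% and 15.3% over all genes. Col1a1 rose from 15.3 ± 3.31 to 25.6 ± 2.10 CPM (SD, n = 3) and Col3a1 was 1.66-fold higher, with adjusted p-values of 0.022 and 0.048 (edgeR). The call of Col3a1 was lost in all 6 fits that left out a sample and with the replicate block in DESeq2 (adjusted p = 0.125). It was kept in 8 of 15 alternative fits, among them the replicate block in edgeR (adjusted p = 2.6e-05) and DESeq2 without the block (adjusted p = 0.0034). The call of Col1a1 was lost in 3 of the 6 fits that left out a sample. The summed level of this list was 233 to 265 CPM in the control and 267 to 290 CPM with ICF, of which Pdgfra, also a gene of primitive endoderm, gave 178 ± 6.45 and 182 ± 0.056 CPM (SD, n = 3). Of 6 tested endothelial genes, 1 was higher and 0 lower, beside 3.47% and 4.38% over all genes. The gene called was Eng, the co-receptor endoglin, with 28.7 ± 1.05 and 44.8 ± 0.72 CPM (SD, n = 3, adjusted p = 0.0012, edgeR). Klf2, a gene known for its response to flow in endothelium, stood beside Pecam1 at 38.7 ± 7.29 and 41.0 ± 16.6 CPM and Cdh5 at 19.7 ± 1.56 and 25.5 ± 2.29 CPM (SD, n = 3), with the summed endothelial list at 104 to 121 and 121 to 155 CPM. With the replicate block 2 of the 6 were higher (Eng and Cdh5) and 1 lower (Tie1), beside 14.6% and 15.3% over all genes. Their adjusted p-values in that edgeR fit were 1.6e-09 for Eng, 0.00029 for Cdh5 and 0.00011 for Tie1, which was chosen after its values were seen. DESeq2 without the block gave 2 higher and 1 lower, beside 6.38% and 7.50% over all genes. Tie1 had 6.30 ± 0.38 CPM in the control and 3.66 ± 1.34 CPM with ICF (SD, n = 3), without overlap. The part of any of these lineages in the levels of the 10 factors was not tested.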

How the data were processed

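RNA sequencing measured mRNA in 3 ICF and 3 control samples. After quality control (FastQC, Trimmomatic) and alignment by HISAT2, the authors counted reads per gene with HTSeq and deposited these counts without normalization. The libraries were strand-specific, with single reads of 75 cycles. The submitters' processing notes name the builds GRCm38 and hg38, and the annotation is not given in the sources used here. Rows for reads given to no gene, 38.1% to 40.3% of each file's total and mostly reads that aligned to several places, were left out.

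Gene names, coordinates (GRCm38) and exon lengths came from GENCODE M21, which held 50462 of 50686 identifiers and all 131 listed symbols. The main test was the quasi-likelihood test of edgeR 4.0.16, run under R 4.3.3 on condition only after filterByExpr and TMM scaling, with Benjamini-Hochberg adjustment over 16729 genes and a threshold of 0.05. Standard errors and 95% intervals come from that fit. Levels are TMM-normalized CPM. The labels number the samples as donors, and the study's methods describe 3 independent experiments.

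Same-numbered samples share a donor number in the labels, and the correlations of their deviations from the group means, taken over genes, were 0.15, 0.20 and 0.38. Control 1 with ICF 2 reached 0.26 and control 2 with ICF 1 reached 0.17, so that this measure did not tell replicates 1 and 2 apart. All pairs of a replicate 3 with another number were below 0. The deviations within a group sum to 0 for each gene, so those negative values follow in part from the 0.38 of replicate 3. As the labels give the donor, the number was used as a block in an alternative fit, whose values are given where they change a call. The other alternatives were DESeq2 1.42.0 with and without the block, RLE size factors, looser and stricter filters, each sample left out in turn, both samples numbered 3 left out, and the counts of ICF replicate 3 divided by 4, with this and the block combined after the data were seen. The procedure was tested on simulated data. The members and gene lists were chosen with earlier results of these data known. From each list the called genes are named, at most 4 in each direction, with up to 2 of the others at the highest level, and 1 gene that this rule names is not reported here.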

Additional observations from a re-analysis of the deposited data

How the results depend on the processing

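Each group had 3 samples, and the counts of ICF replicate 3, mostly in steps of 4, are less precise than its total implies. Over 15 alternatives (14 planned, 1 added after the data were seen), no named gene was called in opposite directions. Of 150 values of the 10 factors, 12 moved past the threshold and 2 lost it. The 12 were Nanog (2), Klf2 (1), Klf4 (4), Klf5 (4) and Zfp42 (1), all lower and all in fits with the replicate block or without both samples numbered 3. The 2 were Tbx3 without control replicate 1 and without control replicate 2.

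The number of the 10 factors called lower went from 0 to 2 (Klf4 and Klf5 in edgeR) with the replicate block in edgeR or DESeq2, and to 4 with the block on divided counts and with both samples numbered 3 left out (Nanog, Klf2, Klf4 and Klf5 in the latter). With a sample left out in turn, 0 to 1 were called higher and 0 lower. For the 24 network genes, 6 were higher and 7 lower with the replicate block, 5 and 6 with the block in DESeq2, 5 and 7 with the block on divided counts and 5 and 8 without both samples numbered 3. Leaving out a sample in turn gave 1 to 3 higher and 2 to 4 lower. Over all genes, 943 were higher and 1109 lower with DESeq2, 1457 and 1662 with DESeq2 and the block, 2445 and 2561 with the replicate block, 2681 and 2778 with the block on divided counts, and 2466 and 2627 without both samples numbered 3. Leaving out a sample in turn, the count of all genes called higher with ICF was 85 to 724 and that of all genes called lower with ICF was 215 to 928, with the fewest of both without control replicate 2. The cause of these shifts was not tested. Dividing the counts of ICF replicate 3 by 4 without the block gave 1 higher and 0 lower of the 10 factors.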
